A study of Mus musculus with 8 samples.

Results

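The genes described here are 47 genes of DNA replication and cell division, followed through 8 bulk RNA sequencing libraries of the developing mouse brain and spinal cord. They were taken by name from a fixed list and are 47 of the 36317 genes of the deposited table. By textbook role 21 of them act in DNA replication (S phase) and 26 in mitosis (G2/M). All 47 passed the filter on low values. That filter asked for at least 1 RPKM (reads per kilobase of transcript, scaled to the mapped reads) in at least 2 of the 8 libraries.

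There were 4 groups of 2 libraries. At embryonic day 13.5 (E13.5) these were forebrain and spinal cord of wild-type (wt) embryos, and at E15.5 forebrain of wt and of EED-cKO embryos. In the EED-cKO embryos Eed was deleted by a Cre recombinase under control of Sox1, a gene of early neural progenitors. EED belongs to the core of PRC2, the Polycomb complex that methylates histone H3 and so keeps genes silent. Vessels, microglia and meninges lie outside the Sox1 lineage, so part of the dissected tissue is not a target of the Cre. The alleles and the Cre status of the wt embryos, and whether a library came from 1 embryo or a pool, are not given in the sources used here. The p-values therefore reflect the spread among these libraries only, which may be technical.

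The values of the E15.5 columns were matched to the gene names sorted alphabetically, ignoring case and hyphens. This left 32 of the 47 genes in their deposited row and moved 15, namely all 6 Mcm genes, Cdc6, Cdk2, E2f1, Cdc25c, Cdc20, Kif11, Kif20a, Kif23 and Gtse1. Across the 15 moved genes, the correlation of the 2 ages of wt forebrain was r = 0.208 as deposited and 0.857 once restored, against 0.837 across the 32 others. Eed was at 25.8 and 27.9 RPKM in wt E15.5 forebrain and at 10 and 10.6 RPKM in EED-cKO. Levels of 7 forebrain transcription factor genes summed to 512.9 to 581.9 RPKM in the wt forebrain libraries and to 5.8 and 7.1 RPKM in spinal cord, and those of 6 Hox genes of the spinal cord to at most 0.2 RPKM and to 836.6 and 1000.2 RPKM. In EED-cKO forebrain these sums were 201.5 and 162.1 RPKM for the forebrain genes and 58.3 and 53.8 RPKM for the Hox genes. Summed RPKM over all genes ran from 378294 to 397318 in the E13.5 libraries and from 761646 to 843295 in those of E15.5. Without read counts in the table, library depth is unknown.

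A cell that divides copies its DNA once and then separates the copies. Replication starts where licensing factors such as CDC6 and CDT1 load the MCM helicase, after which polymerases, the sliding clamp PCNA and a supply of deoxynucleotides carry it through. Cyclin B with CDK1, the Aurora and Polo kinases, the spindle checkpoint and the anaphase-promoting complex then run mitosis. In the embryonic forebrain and spinal cord these transcripts come mainly from cycling progenitors, and neurons that have left the cycle hold little of them. In bulk RNA, fewer cycling cells and less RNA per cycling cell cannot be told apart.

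The 2 classes are known for different short promoter motifs. E2F factors bind near the start sites of many replication genes. Many mitotic genes carry a cell cycle homology region (CHR), bound by the DREAM and MYB-MuvB complexes, together with CCAAT boxes, bound by NF-Y. Promoters are shown for the 3 genes of each class with the largest fall in EED-cKO that hold the motif of their class before the start, as the 250 bases before the RefSeq start site (build GRCm38.p6), 5′ to 3′ on the strand of the gene. In the 3 replication genes, Rrm2 (chr12:24708004-24708253, plus strand), Mcm7 (chr5:138171884-138172133, minus strand) and Mcm5 (chr8:75109259-75109508, plus strand), capitals mark the E2F letters. In the 3 mitotic genes, Ube2c (chr2:164769679-164769928, plus strand), Kif11 (chr19:37376132-37376381, plus strand) and Cdc20 (chr4:118437344-118437593, minus strand), capitals mark CHR and CCAAT letters.
Rrm2: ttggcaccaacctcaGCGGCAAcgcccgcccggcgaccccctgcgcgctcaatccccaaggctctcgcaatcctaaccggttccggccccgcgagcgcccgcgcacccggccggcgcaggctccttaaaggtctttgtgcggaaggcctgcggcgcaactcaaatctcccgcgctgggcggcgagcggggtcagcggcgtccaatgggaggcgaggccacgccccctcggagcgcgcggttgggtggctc
Mcm7: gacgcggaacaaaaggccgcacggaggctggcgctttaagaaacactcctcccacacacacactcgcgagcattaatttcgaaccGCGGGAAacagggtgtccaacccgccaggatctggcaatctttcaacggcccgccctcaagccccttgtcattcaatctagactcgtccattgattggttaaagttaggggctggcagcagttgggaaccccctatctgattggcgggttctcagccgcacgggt
Mcm5: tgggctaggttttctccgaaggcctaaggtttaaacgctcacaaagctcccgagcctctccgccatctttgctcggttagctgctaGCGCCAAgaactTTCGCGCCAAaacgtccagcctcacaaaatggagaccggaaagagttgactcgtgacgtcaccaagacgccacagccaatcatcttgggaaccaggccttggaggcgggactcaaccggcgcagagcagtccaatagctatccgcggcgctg
Ube2c: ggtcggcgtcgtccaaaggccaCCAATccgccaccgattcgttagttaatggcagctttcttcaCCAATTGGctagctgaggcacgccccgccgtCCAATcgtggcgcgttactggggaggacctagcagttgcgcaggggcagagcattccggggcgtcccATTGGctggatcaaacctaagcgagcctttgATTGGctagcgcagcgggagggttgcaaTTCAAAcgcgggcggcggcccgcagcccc
Kif11: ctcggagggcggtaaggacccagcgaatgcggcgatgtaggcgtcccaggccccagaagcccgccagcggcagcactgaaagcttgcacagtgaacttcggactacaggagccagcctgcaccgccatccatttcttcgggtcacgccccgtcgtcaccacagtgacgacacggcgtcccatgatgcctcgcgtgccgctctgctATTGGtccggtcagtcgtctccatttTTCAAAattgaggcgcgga
Cdc20: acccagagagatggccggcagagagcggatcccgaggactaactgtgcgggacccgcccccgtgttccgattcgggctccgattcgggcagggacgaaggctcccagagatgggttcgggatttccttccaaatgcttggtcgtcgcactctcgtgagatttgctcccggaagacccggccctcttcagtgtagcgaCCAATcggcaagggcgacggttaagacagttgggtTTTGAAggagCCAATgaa

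The E2F letters searched were TTCCCGC or TTGGCGC or TTCGCGC or TTGCCGC, the CHR was TTTGAA and the CCAAT box CCAAT, each on both strands, in 250 bases before and 50 bases after the start. Matches may overlap: in Mcm5 an E2F match on each strand shares letters, and in Ube2c a pair of CCAAT matches does. RefSeq promoters were found for 38 of the 47 genes, 17 replication and 21 mitotic. Not matched were Mcm4, Gins1, Gins2, Ccne2, Ccna2, Cdc25c, Aurkb, Kif20a and Tpx2.

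E2F letters were in the promoter of 12 of 17 replication genes (70.6%) and 3 of 21 mitotic genes (14.3%), against 10.9% of all 27025 genes in the promoter table and 14.1% of the protein-coding ones. The 3 mitotic genes were Ccnb1, Cdk1 and Mki67. CHR letters had the opposite pattern. They were in 15 of 21 mitotic genes (71.4%) and 1 of 17 replication genes (5.88%, Mcm2), against 20.2% of all genes. In each of the 15 the match nearest the start lay within 100 bases of it, from base -98 to base 41. In the narrower window, 8 of 21 mitotic genes (38.1%) had it in the bases before the start, against 18.3% of all genes. CCAAT letters were in 19 of 21 mitotic genes (90.5%) and 11 of 17 replication genes (64.7%), against 41.1% of all genes. All 15 mitotic genes with a CHR also held a CCAAT box, a pairing present in 7.97% of all genes. The classes had like promoter GC content, with medians of 59.5% in replication and 60.67% in mitotic promoters. The median was 52.67% over all promoters and 57.0% over those of protein-coding genes. These are matches of letters and do not show that a factor binds.

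**Figure D1:**
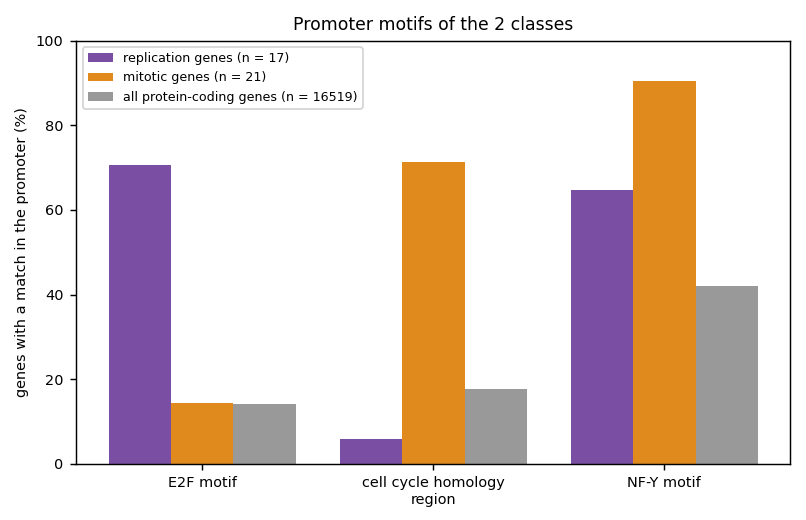
Share of genes (%) whose promoter holds each motif, for the replication genes, the mitotic genes and all protein-coding genes with a RefSeq promoter. E2F letters stand out in replication genes (70.6%) and the cell cycle homology region in mitotic genes (71.4%), while the NF-Y motif (the CCAAT box) is above the share of protein-coding genes (42.0%) in both classes.

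In EED-cKO E15.5 forebrain, the genes of replication and of mitosis were lower together. The comparison of genotypes asks what changes when Eed is deleted from neural cells. Of the 47 genes, 40 fell and 0 rose (17 of 21 replication and 23 of 26 mitotic genes), by limma on log2(RPKM + 1) at an adjusted p under 0.05 over all 17022 genes tested. The share of all tested genes called lower was 16.7%, and called higher 30.2%. The median log2 change was -0.55 in replication and -0.79 in mitotic genes, against 0.08 over all tested genes. On the RPKM scale the median replication gene stood at 67.1% of its wt level and the median mitotic gene at 55.9%. Libraries of the 2 genotypes did not overlap, with EED-cKO the lower, for 44 of the 47 genes, against 27.6% of all tested genes; for 0 of the 47 was EED-cKO the higher without overlap, against 42.6%. An exact permutation of 2 against 2 libraries cannot go below p = 0.333 (two-sided), so every call rests on the spread that limma shares across genes and all 8 libraries. Fitted on the 4 E15.5 libraries alone, 12 replication and 20 mitotic genes fell. Other scalings moved the median of all tested genes to -0.05 (quantile normalization), -0.01 (median ratio scaling) and 0.13 (RPKM scaled to the same sum), with 45, 44 and 36 of the 47 genes lower and 0 higher. Relative to all tested genes, the median of the 47 was -0.73 as fitted and -0.70, -0.75 and -0.70 under these scalings. The calls over all tested genes split into 2838 lower and 5149 higher as fitted, and into 4314 lower and 3540 higher after quantile normalization.

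**Figure D2:**
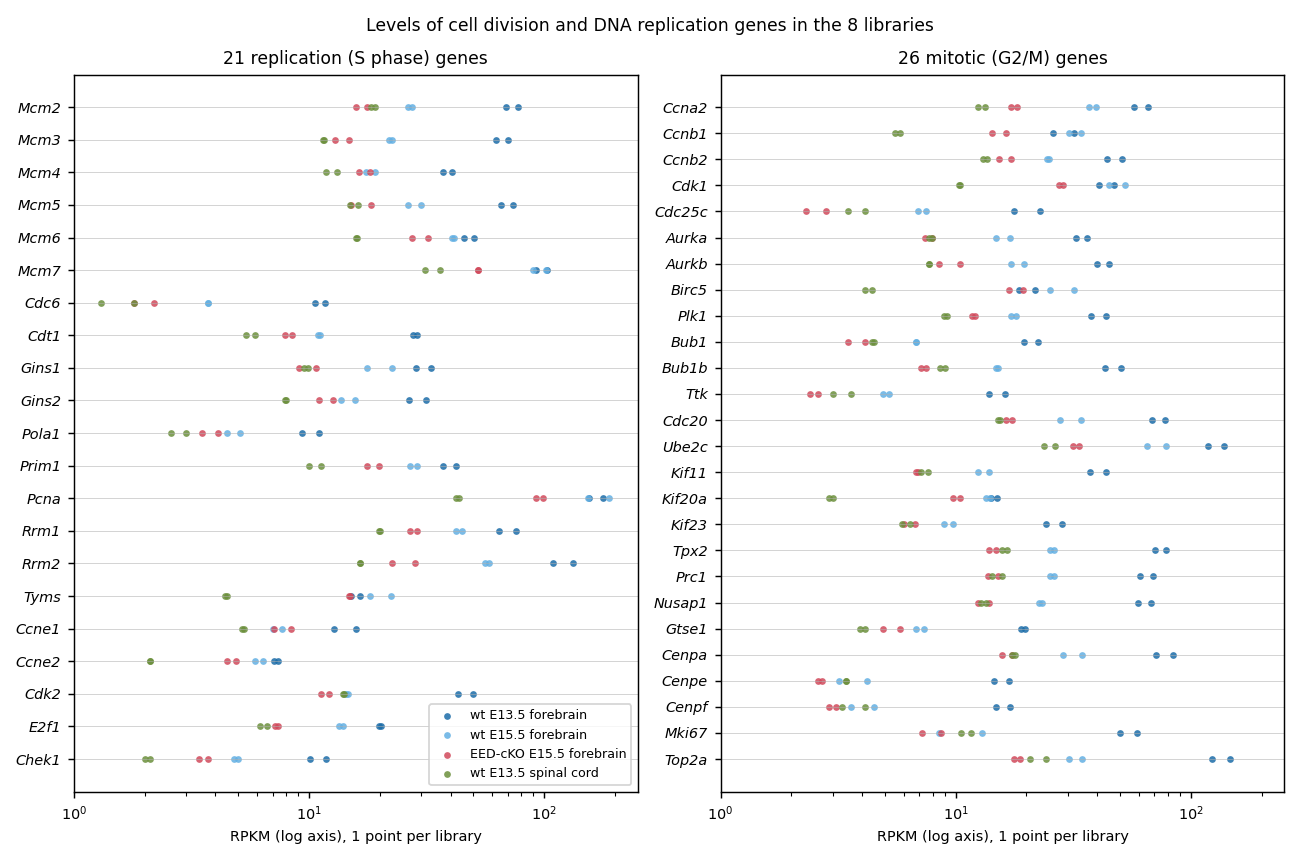
RPKM of each of the 47 genes on a log axis, replication genes on the left and mitotic genes on the right, with 1 point per library coloured by group. The EED-cKO points lie below the wt E15.5 points without overlap for 44 of the 47 genes, and all spinal cord points lie below those of wt E13.5 forebrain.

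Among the replication genes, 5 of the 6 subunit genes of the MCM helicase, which unwinds DNA at the fork, fell. Mcm7 had the largest change of the 6. It was at 89.4 and 101.8 RPKM in wt E15.5 forebrain and at 52.2 and 52.4 RPKM in EED-cKO, a log2 change of -0.85 (SE 0.10, limma adjusted p = 0.000629). Mcm2 was at 26.3 and 27.3 RPKM in wt, against 15.8 and 17.6 RPKM in EED-cKO (log2 change -0.65). Both genes showed EED-cKO libraries close together and well under both wt libraries. Mcm3 (-0.64), Mcm5 (-0.73) and Mcm6 (-0.45) also fell. Mcm4 stood apart from the ring it belongs to: it was at 19.0 and 17.4 RPKM in wt, against 16.3 and 18.1 RPKM in EED-cKO, which overlap (log2 change -0.08, SE 0.09, limma adjusted p = 0.524).

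Of the licensing factors and GINS subunits, 3 of 4 fell. CDC6 and CDT1 load the helicase, and GINS then joins it to make the active form. Cdc6 was at 3.7 RPKM in each wt library, against 1.8 and 2.2 RPKM in EED-cKO (log2 change -0.65, SE 0.12). Cdt1 fell by 0.38 on the log2 scale. The 2 GINS subunits differed in size of change. Gins1 was at 17.6 and 22.5 RPKM in wt, against 10.7 and 9.1 RPKM in EED-cKO (log2 change -0.94, SE 0.13, limma adjusted p = 0.00149). Gins2 was at 13.7 and 15.7 RPKM in wt, against 11.0 and 12.6 RPKM in EED-cKO, without overlap but short of the threshold (log2 change -0.29, SE 0.11, limma adjusted p = 0.0653).

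At the fork itself, Pcna, the clamp that holds polymerases on DNA, was the most abundant of the 47 genes in every library. It was at 153.6 and 189.2 RPKM in wt E15.5 forebrain and at 92.1 and 99.1 RPKM in EED-cKO (log2 change -0.83, SE 0.11, limma adjusted p = 0.00128). Prim1, a primase subunit, fell by 0.55 on the log2 scale. Pola1, its polymerase partner, was at 5.1 and 4.5 RPKM in wt, against 3.5 and 4.1 RPKM in EED-cKO (log2 change -0.27, limma adjusted p = 0.104).

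All 3 genes of deoxynucleotide supply fell. Rrm2, the subunit of ribonucleotide reductase that limits its activity through the cycle, had the largest change of the replication genes. It was at 55.8 and 58.5 RPKM in wt, against 22.5 and 28.3 RPKM in EED-cKO, or 44.4% of wt (log2 change -1.15, SE 0.12, limma adjusted p = 0.000527). Its partner subunit Rrm1 was at 42.0 and 44.6 RPKM in wt, against 27 and 28.8 RPKM in EED-cKO, a smaller change (-0.62). Tyms, which makes thymidylate, was at 18.2 and 22.4 RPKM in wt, against 14.8 and 15.0 RPKM in EED-cKO (-0.41, SE 0.10, limma adjusted p = 0.0157), and leaving out either EED-cKO library ended its call (adjusted p = 0.0825 and 0.0803).

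The regulators of entry into S phase had the smallest median change of the replication subgroups (-0.31). E2f1, the transcription factor of this step, was at 13.4 and 14 RPKM in wt, against 7.2 and 7.4 RPKM in EED-cKO, with very little spread (log2 change -0.82, SE 0.07, limma adjusted p = 0.000226). Ccne1, the cyclin E that partners CDK2, was at 7.0 and 7.7 RPKM in wt, against 7.1 and 8.4 RPKM in EED-cKO. These libraries overlap, and Ccne1 is the only one of the 47 genes with a change above 0 (0.06, SE 0.12, limma adjusted p = 0.702), a sign that turned under quantile normalization (-0.23), under median ratio scaling (-0.05) and without EED-cKO replicate 2 (-0.04). Its paralog Ccne2 (-0.33) and Cdk2 (-0.29) fell, as did the checkpoint kinase Chek1 (-0.38). These 3 calls were fragile: Ccne2 lost its call without EED-cKO replicate 1 (limma adjusted p = 0.0895), Chek1 without wt E15.5 replicate 2 or either EED-cKO library (0.0564 to 0.0963), and Cdk2 without any 1 of the E15.5 or spinal cord libraries (0.0599 to 0.154). With RPKM scaled to the same sum, Ccne2, Cdk2 and Chek1 were no longer called.

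In the mitotic class, the cyclins, CDK1 and its activator had the largest subgroup median (-1.04), and all 5 fell. Cdc25c, the phosphatase that activates CDK1, was at 6.9 and 7.5 RPKM in wt, against 2.3 and 2.8 RPKM in EED-cKO, or 35.4% of wt, the lowest share of the 47 genes (log2 change -1.21, SE 0.14, limma adjusted p = 0.000685). Ccna2, cyclin A, was at 36.8 and 39.7 RPKM in wt, against 17.2 and 18.3 RPKM in EED-cKO (-1.07). Ccnb1, cyclin B1, was at 30.4 and 34.2 RPKM in wt, against 14.2 and 16.3 RPKM in EED-cKO (-1.04). In all 3 genes both EED-cKO libraries lay under both wt libraries by a wide margin. Cdk1 fell from 44.9 and 52.3 RPKM to 27.5 and 28.7 RPKM (-0.77). Ccnb2, cyclin B2, changed less (-0.58).

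The kinases of the spindle and the chromosomal passenger complex fell in 4 of 4 cases. Aurka, which matures the spindle poles, was at 14.9 and 17.0 RPKM in wt, against 7.4 and 7.9 RPKM in EED-cKO (log2 change -0.97). Aurkb (-0.89), which corrects faulty attachments to the spindle, Plk1 (-0.53) and Birc5 (-0.62), the survivin subunit of the same passenger complex as Aurkb, also fell. Birc5 lost its call without EED-cKO replicate 1 (limma adjusted p = 0.0698).

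The spindle checkpoint and the anaphase-promoting complex were lower throughout, with 5 of 5 genes called. Ube2c, the ubiquitin-conjugating enzyme of that complex, was at 65.2 and 78.6 RPKM in wt, against 31.6 and 33.5 RPKM in EED-cKO (log2 change -1.11, SE 0.11, limma adjusted p = 0.000427). Its activator Cdc20 was at 27.7 and 34.1 RPKM in wt, against 16.3 and 17.4 RPKM in EED-cKO (-0.83). The checkpoint kinases and scaffolds that restrain CDC20 moved the same way, with Bub1b at 15.1 and 14.8 RPKM in wt, against 7.1 and 7.5 RPKM in EED-cKO (-0.94), Bub1 at -0.70 and Ttk at -0.79.

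All 7 genes of spindle structure and cytokinesis fell, over a range from -0.85 for Kif11, the motor that pushes the spindle poles apart, to -0.35 for Gtse1. Kif11 was at 13.8 and 12.5 RPKM in wt, against 6.8 and 6.9 RPKM in EED-cKO. Tpx2 (-0.80), Prc1 (-0.80) and Nusap1 (-0.76), which organise spindle microtubules, changed about as much. The 2 kinesins of the cleavage furrow changed less, Kif20a by -0.41 and Kif23 by -0.49. Kif23 lost its call without EED-cKO replicate 1 (limma adjusted p = 0.06). Gtse1 lost it without that library (0.11), without wt E15.5 replicate 1 (0.061), and with RPKM scaled to the same sum (0.0956).

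Centromere and chromosome genes were the exception in this class, with 2 of 5 called. Cenpa, the histone H3 variant that marks centromeres, was at 28.5 and 34.6 RPKM in wt, against 15.7 and 17.4 RPKM in EED-cKO (log2 change -0.89). Top2a, the topoisomerase that untangles sister chromatids, was at 34.4 and 30.4 RPKM in wt, against 17.7 and 18.7 RPKM in EED-cKO (-0.80). The other 3 are long kinetochore or chromosome-surface proteins and did not reach the threshold as fitted, though other scalings called them lower: quantile normalization all 3 (Cenpe -0.71, Cenpf -0.69 and Mki67 -0.64) and median ratio scaling Cenpe (-0.42) and Cenpf (-0.41). Cenpe also passed with a pseudocount of 0.1 or 0.5 (limma adjusted p = 0.045 and 0.0461). Cenpe was at 4.2 and 3.2 RPKM in wt, against 2.6 and 2.7 RPKM in EED-cKO (-0.36, limma adjusted p = 0.0501). Cenpf was at 4.5 and 3.6 RPKM in wt, against 2.9 and 3.1 RPKM in EED-cKO (-0.33, adjusted p = 0.0775). For Mki67, the chromosome-surface protein behind the Ki-67 stain for cycling cells, the EED-cKO libraries (7.2 and 8.7 RPKM) overlapped the wt ones (12.9 and 8.5 RPKM), with a change of -0.37 (SE 0.18, adjusted p = 0.146). Mki67 is thus a gene whose wt libraries differ from each other by more than its EED-cKO libraries do.

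**Figure D3:**
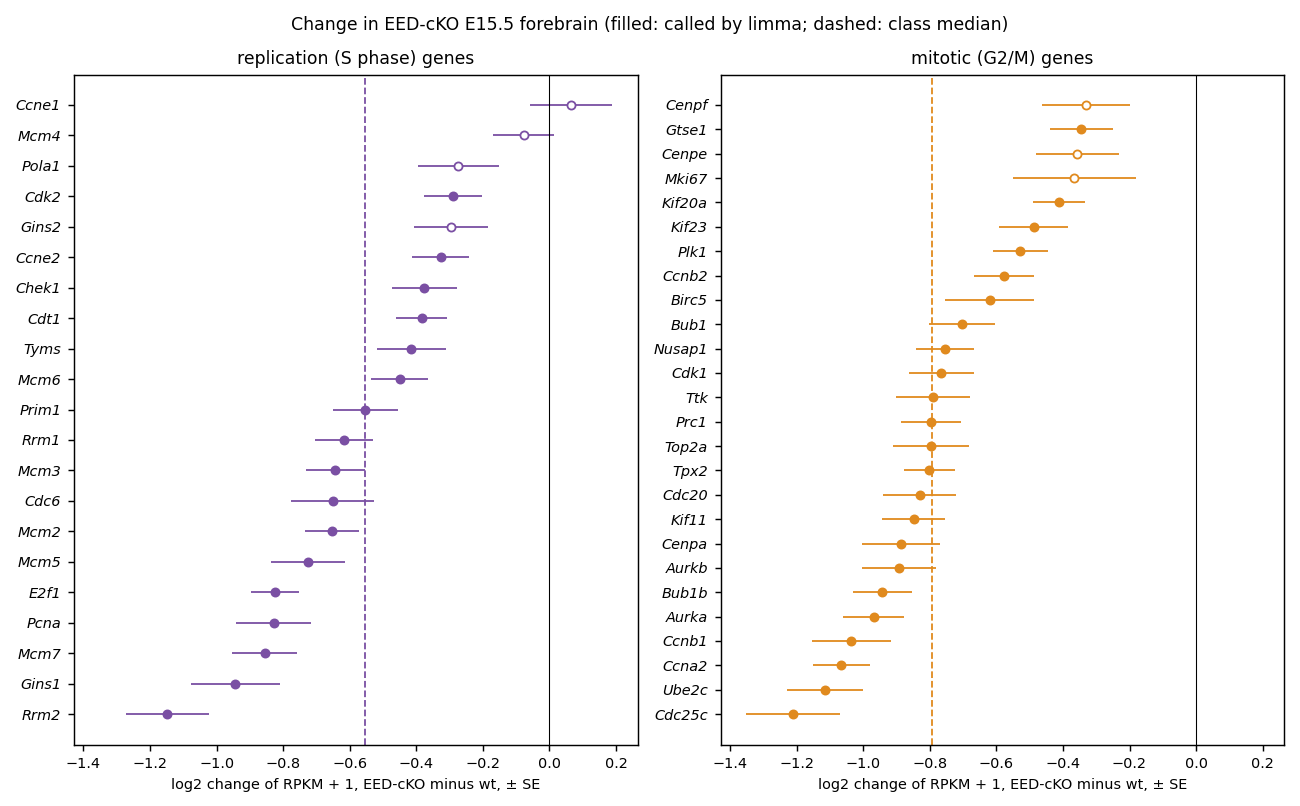
Log2 change of RPKM + 1 in EED-cKO against wt E15.5 forebrain for each gene, with its standard error (bars), replication genes on the left and mitotic genes on the right, ordered by size. Filled points were called by limma and open points were not; dashed lines are the class medians (-0.55 and -0.79), and Ccne1 alone lies above 0, a sign that turned under quantile normalization and median ratio scaling.

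Cenpe, Cenpf and Mki67 have the 3 longest transcripts of the 47 genes, at 7910, 11130 and 10061 bases (longest protein-coding transcript in the GRCm38 annotation), and the 2 wt E15.5 libraries differed by transcript length. Across the 47 genes, the log2 difference of wt E15.5 replicate 2 from replicate 1 had r = -0.709 with log2 length, and across 15451 tested genes with a length it had r = -0.447. In the other 3 groups the same r over all genes was between 0.0175 and 0.0859. The genes of a library share that library, so these r describe the libraries and carry no p. Among the 47, Gins1 (1087 bases) was 0.34 higher in wt replicate 2 on the log2 scale and Mki67 0.55 lower. Without wt replicate 2, Mki67 (-0.64, limma adjusted p = 0.0245) and Cenpe (-0.51, 0.0165) passed the threshold.

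In a further fit, chosen after seeing the data, the trend with length was subtracted from each library, which also centres it. There, 20 of 21 replication and 26 of 26 mitotic genes fell, among them Mki67 (log2 change -0.73), Cenpf (-0.71), Cenpe (-0.67), Pola1 (-0.50), Gins2 (-0.45) and Mcm4 (-0.22, limma adjusted p = 0.0391). Ccne1 did not (-0.03, adjusted p = 0.848). With no length term, Gins2, Pola1, Cenpe and Cenpf were also called lower under median ratio scaling (Gins2 -0.41 and Pola1 -0.36). The same genes and Mki67 were called lower under quantile normalization (Gins2 -0.47 and Pola1 -0.64). Mcm4 was called lower in the length fit alone. The length fit both centres a library and removes its trend, and the part of each in these calls was not tested. Of all tested genes with a length, 5233 were called lower in that fit. The change in EED-cKO itself ran with length across the 47 genes with r = 0.359 (longer transcripts had the smaller fall), at 0.154 against wt replicate 1 alone and 0.498 against wt replicate 2 alone.

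**Figure D4:**
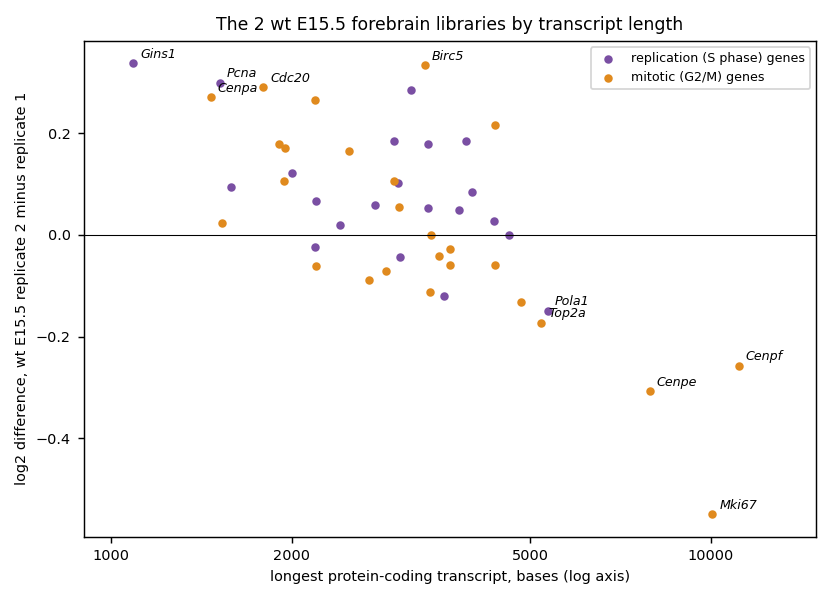
Log2 difference between the 2 wt E15.5 forebrain libraries (replicate 2 minus replicate 1) of each gene against the length of its longest protein-coding transcript in bases (log axis), coloured by class. Points fall from Gins1 (1087 bases, 0.34) to Mki67 (10061 bases, -0.55), with r = -0.709 over 47 genes.

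How the 2 classes compare is a description without a test. In EED-cKO the mitotic median lay 0.24 below the replication median on the log2 scale (-0.18 to -0.28 as each library was left out, and -0.21 without the 5 genes active in both phases: Mki67, Top2a, Ccna2, Cdk1 and Chek1). The classes interleave: 19 of 26 mitotic genes were below the replication median, and 5 of 21 replication genes (Rrm2, Gins1, Mcm7, Pcna and E2f1) were below the mitotic median. Within a library, the replication median minus the mitotic median was 0.05 and 0.24 in wt E15.5 forebrain and 0.25 and 0.37 in EED-cKO. The 2 genotypes therefore did not overlap on this measure but nearly met. Genes of a class also shared shifts between replicates, since 45 of 47 were higher in EED-cKO replicate 2 than in replicate 1 (median 0.11 on the log2 scale, against 0.01 over all tested genes). They are not independent measurements.

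Most other genes listed by textbook role for the same processes fell in EED-cKO as well. The lists were chosen with earlier results of these data known and are read in the same libraries, so they are not independent support. Of 48 further replication genes, 34 fell (70.8%, against 16.7% of all tested genes) and 0 rose (median log2 change -0.45). They included Chaf1b (-0.95), which deposits histones behind the fork, Rfc4 (-0.90), a subunit of the clamp loader, Uhrf1 (-0.88), which reads newly copied methylated DNA, and Cdc45 (-0.87), the partner of MCM and GINS. Of 48 further mitotic genes, 42 fell (87.5%) and 0 rose (median -0.69), led by Pbk (-1.57), Cdca3 (-1.09), Kif22 (-1.05) and Cdca5 (-1.01). Pbk was at 30.0 and 35.0 RPKM in wt, against 9.3 and 11.3 RPKM in EED-cKO. The mitotic list had the lower median, as among the 47.

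The factors that act on these promoters changed less as a list (median log2 change -0.16). Of 18 genes of the E2F, RB and DREAM machinery, 7 fell (38.9%, against 16.7% of all tested genes) and 0 rose. The 4 with the largest changes were Mybl2 (-0.81) and Foxm1 (-0.63), activators of mitotic genes, Lin9 (-0.53), a MuvB subunit, and Tfdp1 (-0.48), the partner of E2F. Upstream of them, genes that hold back or push the cycle moved in both directions. Of 7 CDK inhibitors, 4 rose (57.1%) and 1 fell (14.3%), against 30.2% of all tested genes called higher and 16.7% lower. Cdkn2a went from 0.1 RPKM in both wt libraries to 63.9 and 66.4 RPKM, and Cdkn2b from 0.6 and 0.4 RPKM to 16.9 and 17.3 RPKM. Cdkn1a (log2 change 1.52) and Cdkn1c (0.88) also rose, and Cdkn1b fell (-0.69). Of 5 D-type cyclin and kinase genes, 2 rose (40%) and 1 fell (20%), counts near the shares of all tested genes. Ccnd1 rose from 30.7 and 28.6 RPKM to 124.7 and 127.9 RPKM (2.06), Ccnd3 rose (0.68) and Cdk4 fell (-0.97).

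Markers of other cells also differed between the genotypes, and their part in the lower levels of the 47 genes was not tested. Summed over 11 genes of neural progenitors, the level was 1860.5 and 1949.1 RPKM in wt and 2093.4 and 2129.1 RPKM in EED-cKO. By gene, 3 were called lower (27.3%) and 4 higher (36.4%), against 16.7% and 30.2% of all tested genes. The list did not follow its sum: its median log2 change was -0.13, with 6 genes below 0 and 5 above. Its median level per library, as log2(RPKM + 1), was 5.21 and 5.15 in wt and 4.90 and 4.95 in EED-cKO. The most abundant of the 11, Fabp7, fell (log2 change -0.27) and Vim rose (0.96). The intermediate progenitor list had 5 of 6 genes lower, and its sum went from 181.7 and 197.6 RPKM to 76.2 and 70.8 RPKM (Neurog2 -2.21, Eomes -3.06). The sum over 10 neuronal genes was 5448.0 and 5550.6 RPKM in wt and 4744.4 and 4596.3 RPKM in EED-cKO. Of these 10, 2 were called lower (20%) and 4 higher (40%), against 16.7% and 30.2% of all tested genes. Their median log2 change was 0.25, opposite in direction to the sum, with 3 genes below 0 and 7 above. Their median level per library, as log2(RPKM + 1), was 7.22 and 6.80 in wt and 7.50 and 7.46 in EED-cKO. Mesenchyme (7 of 7 genes higher; 236.1 and 176.5 against 700.9 and 867.9 RPKM), endothelium (6 of 6; 161.3 and 154.8 against 232.5 and 237.4 RPKM), microglia (5 of 6; 67.6 and 71.1 against 122.4 and 130.8 RPKM) and choroid plexus (5 of 5; 2109.5 and 2267.9 against 5762.9 and 4501.8 RPKM) were all higher in EED-cKO. Red blood cell genes summed to 8275.1 and 11080.5 RPKM in wt and 11535.4 and 12988.4 RPKM in EED-cKO, with 1 gene called in each direction. The gene called lower, Hbb-bt, had the lowest log2 change of all 17022 tested genes (-5.88), while the other 7 of the list were above 0. The cause of that difference was not tested.

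The wt spinal cord held far less of the same transcripts than the wt forebrain at E13.5. This comparison of regions shares no library with that of the genotypes. All 47 genes fell, against 23.9% of all tested genes called lower and 21.8% called higher, and in all 47 both spinal cord libraries lay under both forebrain libraries (39.3% of all tested genes, with 37.0% the other way). The median log2 change was -1.74 in replication and -2.06 in mitotic genes, against 0.00 over all tested genes. The median replication gene was at 27.6% and the median mitotic gene at 21% of its forebrain level, and 31 of the 47 (6 replication and 25 mitotic genes) were under 25%. All 47 calls held with each library left out.

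Rrm2 again had the largest change, here of all 47 genes. It was at 109.1 and 132.5 RPKM in forebrain and at 16.4 RPKM in both spinal cord libraries, or 13.6% (log2 change -2.80, SE 0.12, limma adjusted p = 8.71e-06). Top2a, the mitotic gene with the largest change, was at 122.7 and 146.4 RPKM in forebrain and at 20.7 and 24.3 RPKM in spinal cord (-2.53). Mcm3 was at 62.1 and 70.4 RPKM and at 11.6 and 11.5 RPKM (-2.42), the largest change of the helicase. At the other end stood Ccne1, with 12.8 and 15.9 RPKM in forebrain and 5.2 and 5.3 RPKM in spinal cord, or 36.6% (-1.29, SE 0.12). Ccne1 thus had the change nearest 0 in both comparisons.

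By role, the G1/S regulators had the smallest median (-1.46 on the log2 scale) and Mki67 with Top2a the largest (-2.36). The other mitotic subgroups lay close together, with medians from -1.93 for centromere genes to -2.18 for the spindle checkpoint and anaphase-promoting complex. The replication subgroups spread more, and the helicase alone ran from -1.5 for Mcm7 to -2.42 for Mcm3. Every mitotic gene was below the replication median. The 5 replication genes below the mitotic median were Rrm2, Mcm3, Cdc6, Cdt1 and Mcm5, of which Rrm2 alone was also below it in EED-cKO. The class medians differed by 0.31 (0.30 to 0.35 with each library left out). Mki67, Cenpe and Cenpf, not called in EED-cKO as fitted, were at 20.3%, 21.6% and 23.1% of forebrain here.

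Of the further lists, 45 of 48 replication genes, 47 of 48 mitotic genes and 15 of 18 E2F, RB and DREAM genes fell in spinal cord, with 0 higher in each. Over all tested genes, 23.9% were called lower and 21.8% higher. All 5 D-type cyclin and kinase genes fell, Ccnd2 by the most (log2 change -3.50). The neural progenitor list had 8 of 11 genes lower and 2 higher, though its sum was near equal (1548.1 and 1587.6 RPKM in forebrain, 1633.1 and 1618.1 RPKM in spinal cord). Intermediate progenitor genes were lower in 6 of 6 cases (348.8 and 334.8 against 76.5 and 82.3 RPKM), and neuronal genes higher in 10 of 10 (1683.4 and 1509.4 against 3136.5 and 2942.7 RPKM). The part of cell composition in the regional difference was not tested.

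For each of the 47 genes the log2 change was less negative, or for Ccne1 above 0, in EED-cKO against its wt than in spinal cord against forebrain. The first comparison is at E15.5 and the second at E13.5. In wt forebrain the median of the 47 genes stood at 43.5% of its E13.5 level by E15.5, on the RPKM scale as deposited. Age and starting level thus differ between the 2 comparisons, and their part was not tested. The difference between the 2 log2 changes, tested in the same limma fit, was called for all 47 genes, against 23.4% of all tested genes in that direction and 12.7% in the other. It was 1.28 in the median replication gene and 1.35 in the median mitotic gene. It was smallest for Gins1 (0.63, SE 0.19, limma adjusted p = 0.0387), Mcm7 (0.65, 0.0102) and E2f1 (0.68, 0.0023), which changed by -1.57, -1.5 and -1.51 in spinal cord and by -0.94, -0.85 and -0.82 in EED-cKO. The Gins1 difference lost its call with any 1 of 7 libraries left out (adjusted p from 0.0538 to 0.138), Mcm7 without EED-cKO replicate 2 (0.0516) and Cdc25c without that library (0.056). Across the 47 genes the changes in the 2 comparisons had r = 0.573 (rho = 0.537), against 0.382 over all tested genes. Within the classes r was 0.519 over 21 replication genes and 0.507 over 26 mitotic genes. Genes share libraries and levels, and both changes ran with the starting level (r = -0.481 with the log2 level in wt E15.5 forebrain, r = -0.438 with that in wt E13.5 forebrain). The same reference libraries enter both the level and the change, and log2(RPKM + 1) understates changes of low genes. An r below 0 can therefore follow from the calculation alone.

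**Figure D5:**
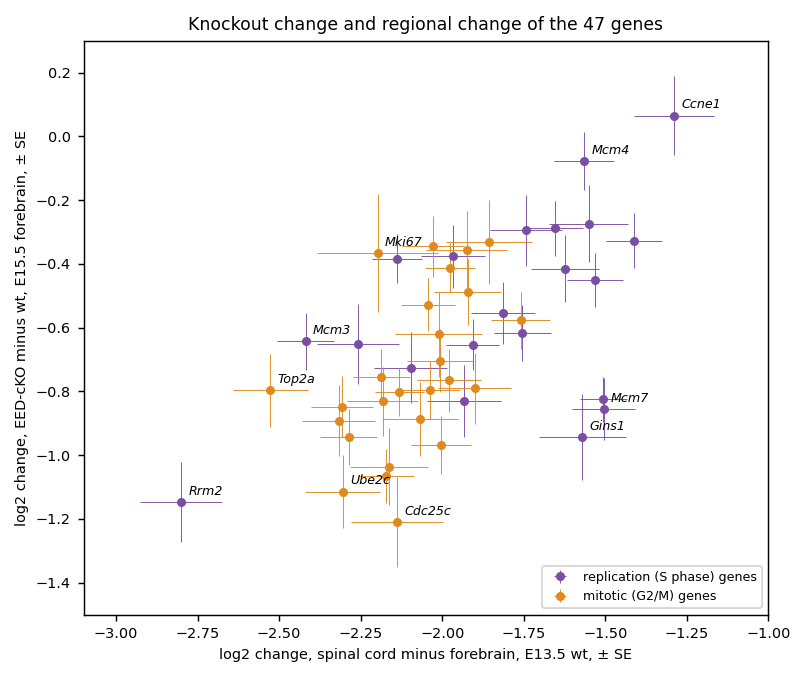
Log2 change in EED-cKO against wt E15.5 forebrain (vertical axis) plotted on the log2 change in spinal cord against forebrain of E13.5 wt (horizontal axis) for the 47 genes, with standard errors as bars and colours for the classes. Ccne1 lies at the upper right (-1.29 and 0.06) and Rrm2 at the lower left (-2.80 and -1.15); r = 0.573.

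Most of these transcripts were also lower in wt forebrain at E15.5 than at E13.5. This comparison uses the control libraries of both others. The summed RPKM and the deposited row order of its columns differ between the ages. Age and the making of the columns therefore cannot be told apart. The median of all tested genes was 0.52 higher at E15.5 on the log2 scale, with 14.5% called lower and 62.5% higher. Against that shift, 39 of the 47 genes fell (17 replication and 22 mitotic) and Tyms (0.34) and Birc5 (0.47) rose. Neither rise was called after quantile normalization, median ratio scaling or scaling to the same sum, which gave values of -0.17, -0.28 and -0.64 for Tyms and -0.10, -0.15 and -0.52 for Birc5. Libraries of the 2 ages did not overlap for 41 genes with E15.5 the lower and for 2 with E15.5 the higher, against 17.8% and 68.2% of all tested genes. The median change of the 47 genes minus that of all tested genes was -1.67, and between -1.70 and -1.84 under those 3 scalings. The class medians were -0.93 and -1.32.

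Mki67 had the largest change with age. It was at 50.0 and 58.8 RPKM at E13.5 and at 12.9 and 8.5 RPKM at E15.5, or 19.7% (log2 change -2.26, SE 0.18, limma adjusted p = 2.29e-05). Top2a went from 122.7 and 146.4 RPKM to 34.4 and 30.4 RPKM (-2.02). The 3 genes with the lowest share of their E13.5 level, Mki67, Cenpe (23.5%) and Top2a (24.1%), have long transcripts, and the length trend of wt E15.5 replicate 2 enters this comparison too. The age change had r = -0.329 with log2 length across the 47 genes, but 0.0162 across 15451 tested genes with a length. Pola1, with a longer transcript than Top2a (5346 against 5221 bases), was at 47.3% of its E13.5 level. The part of length in these falls was not tested. At the other end, Mcm7 (92.3 and 102.4 RPKM at E13.5, 89.4 and 101.8 RPKM at E15.5) and Pcna (154.6 and 178.7 RPKM, 153.6 and 189.2 RPKM) overlapped between the ages. Cdk1 and Ccnb1 were not called in this fit (0.14 and 0.16), and were called lower under each of the 3 other scalings. Side by side, 3 replication genes (Mcm7, Pcna and Ccne2) and 3 mitotic genes (Ccnb1, Cdk1 and Kif20a) were called lower in EED-cKO and in spinal cord but not with age as fitted. Under the other 3 scalings all of these genes were called lower with age too.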

How the data were processed

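Total RNA was sequenced as unstranded single-end reads of 50 bases, per the labels. The authors deposited RPKM values rounded to 0.1, whose making (aligner, counter) is not given in the sources used here; the submitters' processing notes name mm9 and GRCm38 without a role. The 47 genes, the further lists and the tests were chosen with earlier results of these data known. The E15.5 columns were read in the restored row order. Values were taken as log2(RPKM + 1), for genes at 1 RPKM or more in at least 2 of 8 libraries, and fitted with 4 group means in limma 3.58.1 under R 4.3.3 (trend, two-sided, 4 residual degrees of freedom, Benjamini-Hochberg over 17022 genes, called under 0.05). The fit was tested on simulated data. Any of the 47 could be named. Beyond them these could be named: Eed, Ezh2, the CDK inhibitors, the D-type cyclin genes, up to 4 called genes per further list and the most abundant markers. Eomes and Hbb-bt were added after their values were seen. Transcript lengths come from GENCODE (GRCm38) and promoters from RefSeq (GRCm38.p6). Overlapping unstranded transcripts cannot be separated.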

Additional observations from a re-analysis of the deposited data

How the results depend on the processing

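Both class medians stayed negative in EED-cKO and in spinal cord under every alternative run. Results of the length fit and of the crossed block were chosen after seeing the data. With each library left out, 13 to 17 replication and 20 to 25 mitotic genes fell in EED-cKO (medians -0.64 to -0.47 and -0.83 to -0.75; class difference -0.28 to -0.18), 21 and 26 in spinal cord (medians -1.86 to -1.62 and -2.17 to -1.96; class difference -0.35 to -0.30), and 16 to 17 and 22 with age (medians -1.05 to -0.82 and -1.39 to -1.20; class difference -0.45 to -0.34), where 0 to 1 genes of each class rose. The difference between the EED-cKO and the spinal cord change was called for 19 to 21 and 25 to 26 genes, and Eed changed by -1.36 to -1.25. Where 1 library was left in a group, it was assumed to vary like the others.

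Restricted to genes that no reordering moved, 9 of 12 replication genes fell in EED-cKO (median -0.40, class difference -0.39), 12 in spinal cord and 9 with age (-0.77), and 12 differed between the 2 changes; fewer genes enter by construction. In the deposited order the EED-cKO replication median was -0.41, the mitotic age median -1.16 with a class difference of -0.23, and 3 mitotic genes rose with age; there Mcm4 (0.078), Cdc6 (0.18), Cdc25c (0.11), Kif20a (0.16), Kif23 (0.048) and Gtse1 (0.12) turned positive in EED-cKO, and Cdc25c (0.072), Kif20a (2.38) and Kif23 (0.59) with age.

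Quantile normalization, median ratio scaling and the length fit gave EED-cKO mitotic medians of -0.88, -0.89 and -0.92, and the first 2 gave replication medians of -0.66 and -0.67; with the same sum the mitotic median was -0.70. Ccne1 turned negative in EED-cKO under these 3 (-0.23, -0.047 and -0.030), and ran from -0.043 to 0.17 with each library left out. With age, quantile, median ratio, same sum and length fits gave replication medians of -1.39, -1.51, -1.82 and -1.46, mitotic medians of -1.81, -1.93, -2.28 and -1.93, and 0 genes higher in either class, as did the 4 libraries alone; means in place of medians gave -0.80 and -1.15. In those 4 fits in turn the age change was negative for Pcna (-1.07, -0.61, -0.99, -0.68), Tyms (-0.17, -0.28, -0.64, -0.24), Ccnb1 (-0.44, -0.47, -0.84, -0.47), Cdk1 (-0.54, -0.49, -0.86, -0.34) and Birc5 (-0.10, -0.15, -0.52, -0.10). With each library left out, the age change ran from -0.12 to 0.066 for Mcm7 and from -0.11 to 0.19 for Pcna. A pseudocount of 0.1 gave a spinal cord mitotic median of -2.23 and a class difference of -0.41. The cause of these shifts was not tested.

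Over all tested genes, EED-cKO calls of lower numbered 2838 as fitted, 1384 on the 4 libraries alone, 1803 on same-row genes, 1677 and 1482 without either EED-cKO library, 4314 after quantile normalization and 5233 in the length fit. An E2F motif lengthened by 1 letter was in 1 mitotic gene, and the CHR was in 8 before the start.

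Replicate numbers are shared between groups. Whether libraries of the same number share an embryo or a batch is not given in the sources used here. The differences between replicates correlated across genes at 0.21 for the E13.5 tissues and -0.12 for the E15.5 genotypes. Between an E13.5 and an E15.5 group, r ran from -0.006 to 0.048. These r cannot show whether libraries are paired. With the replicate block, 18 replication and 23 mitotic genes fell in EED-cKO, with Gins2 gained (limma adjusted p = 0.0294), and the crossed block gave 17 and 23; both gave 21 and 26 in spinal cord.

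Depth is unknown, so no counting interval can be given, and values are rounded to 0.1 RPKM, which is coarse for Cdc6, Ttk, Cenpe and Cenpf. With 2 libraries a group, the calls rest on a spread shared across groups that differ in it, since the median SD between the libraries of a group was 0.12 for the wt E15.5 libraries and 0.05 to 0.06 elsewhere. Changes on the log2(RPKM + 1) scale understate those of low genes.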

Other observations

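Ezh2, the catalytic subunit of PRC2, was at 64.0 and 68.5 RPKM in wt E15.5 forebrain and at 30.2 and 29.6 RPKM in EED-cKO (log2 change -1.12, limma adjusted p = 7.32e-05), and it was lower in spinal cord (-1.28) and lower with age (-0.63).

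The 47 genes shifted together between replicates of some groups. In wt E13.5 forebrain 46 of 47 were higher in replicate 2, by a median of 0.20 on the log2 scale, while the median over all tested genes was 0.00. The median SD between these libraries was 0.14 for the 47 genes and 0.06 for all tested genes. In wt E13.5 spinal cord 34 were higher and 9 lower in replicate 2, with a median of 0.05.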
